A study of Rattus norvegicus with 19 samples.

Results

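Gene expression in rat somatosensory cortex was compared between the second and the first day after the cortical surface had been perfused with 1 of 3 agents. The comparison set 3 arrays taken at 48 h against 3 taken at 24 h, with the agent as a block, so that each 48 h array was read against the 24 h array of the same agent. These 6 arrays are part of a series of 19. All animals were adult male Wistar rats, and 1 array was run per agent and time. The first agent was sodium deoxycholate (DOC, 2 mM), a bile salt used to open the blood-brain barrier. The second was albumin (0.1 mM), the main protein of serum, and the third was the cytokine TGF-β1 (10 ng/ml). Each was given in artificial cerebrospinal fluid. The 3 arrays of the same agents at 7 h (DOC) or 8 h (albumin and TGF-β1) entered the fit only to widen the estimate of spread. The fit held no sham-operated animal, and the single sham array of this set, taken at 24 h, is quoted as a reference level. Since the labels name no second animal for any agent and time, the p-values weigh the mean change against disagreement between the 3 agents. That disagreement includes the arrays at 7 or 8 h. A gene on which the agents differed early can therefore fail although they shared its change between 24 h and 48 h. The p-values do not hold the spread between animals given the same agent. Of 14225 genes with a probe set of their own, 10023 reached a log2 signal of 4 on at least 2 arrays of the set and were tested.

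When the blood-brain barrier opens or the cortex is injured, microglia, the resident phagocytes of the brain, change shape and gene expression, and monocytes may enter from the blood. Microglia, astrocytes, precursor cells and cells of the vessel wall can divide in the days that follow, fibroblast-like cells of the meninges and vessels lay down collagen, and astrocytes build up intermediate filaments. Genes of neuronal activity respond within the first hours and usually subside earlier than these slower changes.

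The tissue carried the marks of cortex throughout. Slc17a7, the vesicular glutamate transporter of cortical excitatory neurons, lay between 10.99 and 11.82 on the 9 treated arrays (log2 signal, as are all levels below). The summed signal of 18 genes of cortical excitatory neurons was 15.05 to 15.48 at 24 h and 14.90 to 15.28 at 48 h on the log2 scale. Ttr, the defining transcript of choroid plexus, lay between 3.30 and 3.63 on the treated arrays at 24 h and 48 h. It was higher in the sham (5.31) and with DOC at 7 h (5.63), and read 3.59 with albumin and 3.61 with TGF-β1 at 8 h. Array medians were 5.09 to 5.17 over the whole set. With so few arrays, precision is limited by their number.

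Most of the change on the second day was upward. With limma and Benjamini-Hochberg adjustment over all genes tested, 141 genes passed an adjusted p of 0.05, which is 1.41% of the 10023. Of these, 130 rose (1.3%) and 11 fell (0.11%). Among the rises, 109 were at least 2-fold and 44 at least 4-fold, and 6 of the falls were at least 2-fold. All 141 moved the same way under DOC, albumin and TGF-β1, and in 140 the 3 arrays at 48 h did not overlap the 3 at 24 h. Over all genes tested, 10.8% had every 48 h array above every 24 h array and 7.77% every one below. The median difference was 1.63 over the genes that rose and −1.09 over those that fell, against −0.01 over all genes tested. At an unadjusted p of 0.05, 906 genes were higher (9.04%) and 728 lower (7.26%), so the directions were less unequal among weaker differences.

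The filter on low signal favours genes that were dim at 24 h and bright at 48 h. For 32 of the 130 rises, the arrays at 48 h were the only ones above the filter level, and such genes had to differ. Further rises, among them C3 and Clec7a, exceeded that level on a single other array. They too would have failed the filter without their 48 h arrays. With no filter, 57 genes passed, 45 of them among the 141. Where the mean log2 had to exceed 5, 50 passed. With the 6 arrays at 24 h and 48 h alone, without the 3 earlier ones, 10 passed. The count also depended on single arrays. It was 53 without DOC at 24 h, 103 without DOC at 48 h, 65 without albumin at 24 h, 91 without albumin at 48 h, 35 without TGF-β1 at 24 h and 42 without TGF-β1 at 48 h. Leaving out all 3 arrays of an agent gave 62 for DOC, 52 for albumin and 0 for TGF-β1. All fits without an agent have the same residual degrees of freedom as one another, fewer than the full fit. Without TGF-β1 limma gave 1183 genes at an unadjusted p of 0.05. Why that count fell to 0 was not tested. In each fit of this paragraph, every one of the 141 genes that it tested kept its direction and an unadjusted p under 0.05. The fits reuse the arrays by which these genes were chosen.

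**Figure D1:**
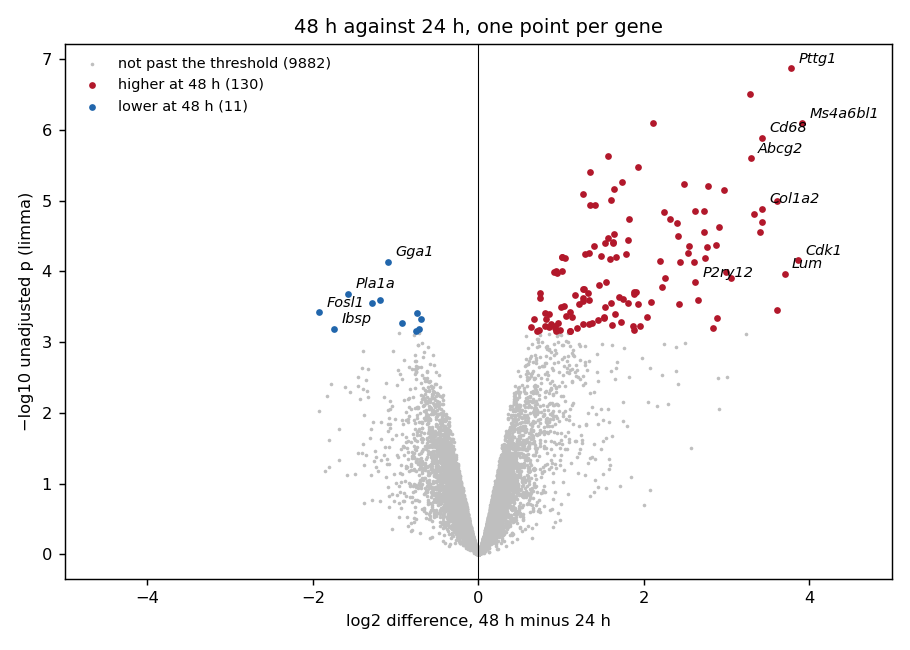
Each point is 1 of the 10023 genes tested; the horizontal axis gives the log2 difference of 48 h minus 24 h and the vertical axis −log10 of limma's unadjusted p. The 130 genes past the threshold on the right outnumber the 11 on the left, and the largest rises, such as Ms4a6bl1 (3.92), lie further from 0 than the largest fall, Fosl1 (−1.92).

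Genes of cell division gave more rises than any other of the 35 lists in this fit. Of 40 genes of the cell cycle and DNA replication with a probe set of their own, 34 were tested; 15 rose and none fell, and 28 of the 34 were higher at 48 h in all 3 agents, as were 19.2% of all genes tested. The median difference of the 34 was 1.64. For 11 of the 34, the 48 h arrays were the only ones above the filter level. Without a filter, all 40 entered the fit, 6 rose and the median was 1.09. With the mean log2 above 5, 13 were tested and 2 rose, against 3 each on the lysosomal, meningeal and reactive astrocyte lists. With the 6 arrays alone, 1 rose, against 2 on the phagocyte list. In bulk tissue, more cells of a type and more RNA per cell cannot be told apart.

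Cdk1 encodes the kinase that drives entry into mitosis. Its level at 24 h was 2.54 with DOC, 4.57 with albumin and 2.85 with TGF-β1, and at 48 h it was 7.49, 6.95 and 7.11 in the same order. The 48 h arrays stood close together and far above all 24 h arrays, among which albumin was the highest, while the sham array read 2.42. Cdk1 rose 14.5-fold (log2 difference 3.86 ± 0.46 SE, n = 3 against 3, limma adjusted p = 0.0128). Ccnb2, a mitotic cyclin that binds this kinase, went from 3.56 (DOC), 4.61 (albumin) and 3.51 (TGF-β1) to 7.99, 7.24 and 7.29. It too was highest with albumin at 24 h and with DOC at 48 h, with no overlap between the days. The rise was 12.2-fold (3.61 ± 0.32, adjusted p = 0.00603).

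Further list members took the same course. Ect2, which helps to place the cleavage furrow, read 2.33 with DOC, 2.76 with albumin and 2.25 with TGF-β1 at 24 h, near the sham level of 2.21. At 48 h it read 5.96, 5.83 and 5.39, and it rose 9.73-fold (3.28 ± 0.18, adjusted p = 0.00154). The 24 h values of such genes lie at the bottom of the array's scale, where the lower quartile of all probe sets on the DOC array at 24 h was 2.50, so their folds depend on how the background was subtracted. Mki67, the proliferation marker Ki-67, moved from 3.26 (DOC), 4.62 (albumin) and 3.25 (TGF-β1) to 7.26, 6.57 and 6.45, a rise of 3.06 ± 0.40 (adjusted p = 0.0189). Top2a, the topoisomerase that untangles replicated chromosomes, moved from 2.96, 4.12 and 2.93 to 6.68, 6.23 and 5.83, a rise of 2.91 ± 0.30 (adjusted p = 0.00825). In both genes all 48 h arrays exceeded all 24 h arrays, and the albumin array was the highest of the 24 h arrays. The other list members that rose were the cyclins Ccna2 (2.99) and Ccnb1 (2.26), the ubiquitin-conjugating enzyme Ube2c (3.43), which works with the anaphase-promoting complex, the spindle proteins Prc1 (2.88), Kif11 (2.72) and Kif20a (2.62), the checkpoint kinase Bub1 (2.73), the kinases Melk (1.93) and Aurka (1.35), and Cdca3 (2.83).

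Not all members passed. Mcm2, Mcm5, Mcm6 and Mcm7, subunits of the replicative helicase, had differences of 0.88, 0.33, 0.99 and 0.42, and Mcm4 of −0.01, none past the threshold. The replication clamp Pcna stood at 0.49 and the G1 cyclins Ccnd1 and Ccnd2 at 0.88 and 0.33, and none of the 3 passed. These 8 genes were named after their values had been seen.

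Of the 12 largest rises, 4 known for a role in cell division stood outside the list; this grouping was made after the genes were seen. Pttg1, the securin that holds back the separation of sister chromatids, had read 2.51 with DOC, 2.24 with albumin and 2.26 with TGF-β1 at 24 h and read 6.65, 5.97 and 5.75 at 48 h. Its rise of 3.78 ± 0.18 had the smallest adjusted p of all genes (0.00135). Pclaf, which binds the replication clamp, rose by 3.61 ± 0.56, Cks2, a small subunit of cyclin-dependent kinases, by 3.40 ± 0.35, and Nuf2 of the kinetochore by 3.34 ± 0.32 (adjusted p = 0.036, 0.00906 and 0.0065).

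The agents shared the direction and differed in size. The mean log2 level of the 34 tested cell cycle genes was 4.68 with DOC, 5.27 with albumin and 4.80 with TGF-β1 at 24 h, against 4.64 in the sham. At 48 h it was 7.07, 6.39 and 6.47. The list's median difference was 2.21 with DOC, 1.34 with TGF-β1 and 0.77 with albumin. Albumin had the highest mean at 24 h and DOC the highest at 48 h. The count of 15 was 10 without DOC at 24 h, 6 without TGF-β1 at 24 h and 9 without TGF-β1 at 48 h, and 14 to 16 without each of the other arrays. Of the genes named here, Ect2, Pttg1 and Ccnb2 passed in 15 of the 16 or 17 alternative fits that tested them, and Cdk1 and Mki67 in 9 of 16.

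**Figure D2:**
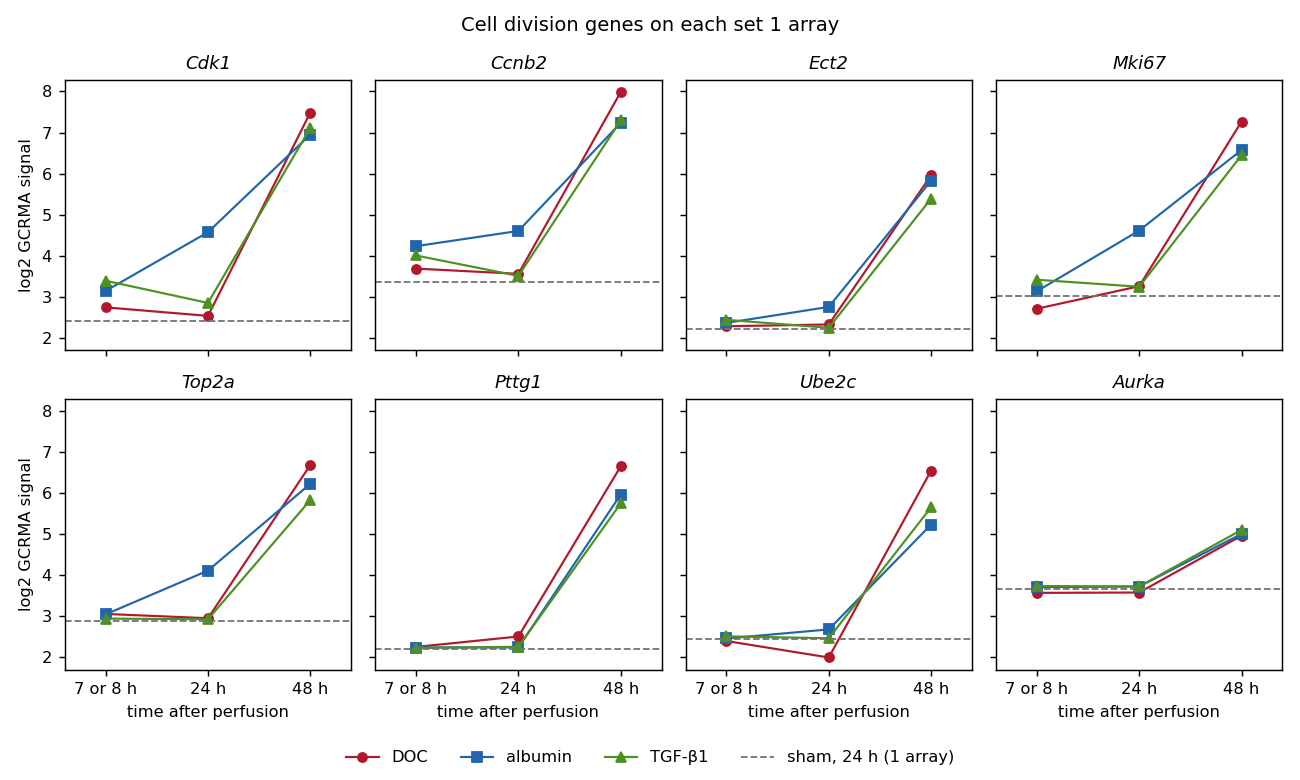
Log2 GCRMA signal of 8 cell division genes against the time after perfusion; each line joins the 3 single arrays of an agent and the dashed line is the single sham array at 24 h. All 8 are higher at 48 h than at 24 h in every agent; at 24 h albumin stands apart from the sham in Cdk1 (4.57 against 2.42), whereas Pttg1 and Aurka lie close to it.

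Since these genes moved together, the promoters of some of them are shown with sequence features known from mitotic genes. Many promoters of mitotic genes hold a CHR element, TTTGAA, and CCAAT boxes, through which repressor and activator complexes time their transcription. The windows run from 250 bases before to 50 after the start of the gene, from RefSeq on assembly GRCr8, and are written 5′ to 3′ along the gene. Capitals mark TTTGAA and CCAAT on either strand (TTCAAA and ATTGG on the other). Shown are Cdk1 (chr20:19265043-19265342, plus strand), Top2a (chr10:84473044-84473343, minus strand) and Mki67 (chr1:199952544-199952843, minus strand). They are among the 6 of 13 risen list members with a promoter that hold both motifs, so they do not stand for all. Ccnb1, Kif11, Kif20a and Cdca3 held CCAAT without TTTGAA, and Bub1, Aurka and Melk held neither.
Cdk1: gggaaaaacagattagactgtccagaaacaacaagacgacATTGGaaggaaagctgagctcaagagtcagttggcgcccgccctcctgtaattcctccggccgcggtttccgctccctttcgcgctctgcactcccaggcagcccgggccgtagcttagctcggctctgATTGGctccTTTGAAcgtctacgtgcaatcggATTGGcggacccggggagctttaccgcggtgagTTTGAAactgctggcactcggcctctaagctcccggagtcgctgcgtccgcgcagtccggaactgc
Top2a: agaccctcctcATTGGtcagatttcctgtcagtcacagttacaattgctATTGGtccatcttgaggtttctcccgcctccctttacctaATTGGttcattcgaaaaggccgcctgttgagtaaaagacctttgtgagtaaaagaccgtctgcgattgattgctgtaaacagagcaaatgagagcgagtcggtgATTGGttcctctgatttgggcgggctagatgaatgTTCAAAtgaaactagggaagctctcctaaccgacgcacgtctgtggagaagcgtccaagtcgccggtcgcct
Mki67: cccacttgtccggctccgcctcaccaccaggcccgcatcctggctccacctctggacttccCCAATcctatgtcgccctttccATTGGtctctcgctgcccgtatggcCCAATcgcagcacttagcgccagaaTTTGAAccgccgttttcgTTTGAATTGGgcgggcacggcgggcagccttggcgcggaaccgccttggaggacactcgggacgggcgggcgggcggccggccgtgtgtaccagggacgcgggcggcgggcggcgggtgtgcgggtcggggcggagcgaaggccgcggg
In Cdk1 the 2 TTTGAA matches begin 72 and 16 bases before the start, in Mki67 they begin 117 and 99 bases before it, and in Top2a the single match begins 22 bases before it. Of the 26 tested cell cycle genes with a promoter in the table, 11 held TTTGAA (42.3%) and 20 held CCAAT (76.9%). Over the 8402 tested genes with a promoter there, the shares were 10.8% and 38.0%, and over all 33469 promoters 18.3% and 37.5%. Both motifs together were present in 10 of the 26 (38.5%), against 4.58% of tested genes. Within the list, 6 of 13 members that rose (46.2%) and 5 of 13 that did not pass (38.5%) held TTTGAA. Of 113 genes with a promoter among all 130 that rose, 29 held TTTGAA (25.7%). These are matches of letters in a window, and binding was not measured.

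Genes of phagocytes formed the second group. Of 28 tested genes of phagocyte activation 7 rose and none fell, with a median difference of 0.92. Cd68, a lysosomal membrane protein used as a marker of macrophages and reactive microglia, was at the bottom of the scale at 24 h, with 2.13 (DOC), 2.35 (albumin) and 2.13 (TGF-β1), and the sham read 2.02. At 48 h it was 4.96, 6.10 and 5.83, so that no array overlapped. The rise was 10.8-fold (3.43 ± 0.23, adjusted p = 0.00256), and Cd68 entered the test only through its 48 h arrays.

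Cybb, the catalytic subunit of the phagocyte NADPH oxidase, was already graded at 24 h, with 4.59 (DOC), 4.43 (albumin) and 3.06 (TGF-β1), above the sham at 2.32. At 48 h it read 7.53, 7.07 and 6.38, again lowest with TGF-β1, a rise of 2.97 ± 0.25 (7.81-fold, adjusted p = 0.005). Clec7a, the β-glucan receptor dectin-1, was also lowest with TGF-β1 on both days, with 3.90, 4.46 and 3.06 at 24 h and 6.51, 6.17 and 5.35 at 48 h. It rose by 2.20 ± 0.26 (adjusted p = 0.0128). The remaining members that rose were Mrc1, the mannose receptor of perivascular macrophages (1.89), the actin-capping protein Capg (1.60), the lysosomal membrane protein Laptm5 of blood cells (1.54) and the protease Ctsl (0.73). Not past the threshold were Tyrobp (0.81), Fcer1g (1.07) and Lyz2 (1.44), the members with the next smallest p, named after their values were seen.

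The largest rise of all belonged to Ms4a6bl1, a member of the MS4A family of membrane proteins. It read 3.18 with DOC, 3.60 with albumin and 3.52 with TGF-β1 at 24 h and 7.47, 7.57 and 7.01 at 48 h, and the sham read 2.26. The agents did not separate from one another on either day, and the rise was 15.1-fold (3.92 ± 0.24, adjusted p = 0.00202).

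Of 11 tested genes that mark resting microglia, 2 rose, none fell, and the median difference was 1.19. Mertk, a receptor for the uptake of dying cells named after its value was seen, was lower on every 48 h array and did not pass (−0.72 ± 0.30, adjusted p = 0.304). P2ry12, the ADP receptor that guides microglial processes, read 7.83 (DOC), 6.02 (albumin) and 8.09 (TGF-β1) at 24 h, all below the sham at 8.88. At 48 h the 3 arrays read 9.97, 9.81 and 10.01, all above the sham and closer to one another than at 24 h. P2ry12 rose 6.15-fold (2.62 ± 0.35, adjusted p = 0.0208), with the widest step under albumin. Csf1r, the receptor for the growth factor on which microglia depend, moved from 7.96, 7.48 and 8.24 to 8.76, 9.18 and 9.30 (1.19 ± 0.20, adjusted p = 0.0488). Aif1, which encodes Iba1, differed by 1.15 ± 0.23 with no overlap of arrays and did not pass (adjusted p = 0.0768).

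Of the 33 tested lysosomal genes 6 rose and none fell, with a median of 0.39. Besides Cd68 and Ctsl these were Npc2, which exports cholesterol from lysosomes (1.01 ± 0.12, adjusted p = 0.0124), Ctsh (1.05 ± 0.12, adjusted p = 0.0124) and Ctsc (2.04), both cysteine proteases, and the glucuronidase Gusb (0.92). Npc2 read 9.58 (DOC), 10.21 (albumin) and 10.07 (TGF-β1) at 24 h and 10.76, 11.07 and 11.06 at 48 h, so the change was smaller than in Cd68 and in a gene well above background. The E-box TCACGTG, a motif of many lysosomal promoters, was found on either strand in 4 of 28 lysosomal promoters in the table (14.3%), in 5.7% of those of all tested genes, and in none of the 6 members that rose.

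Among 12 complement genes 1 rose. C3, the central component, read 3.06, 2.94 and 3.12 at 24 h with DOC, albumin and TGF-β1 and 4.79, 4.28 and 4.63 at 48 h (1.53 ± 0.17, adjusted p = 0.0106), while the sham read 3.85. The complement count was 3 without DOC at 48 h, 0 without either TGF-β1 array and 1 without each of the others. The first component genes C1qc (1.08 ± 0.19, adjusted p = 0.0511) and C1qa (1.10 ± 0.23, adjusted p = 0.0894) did not pass. None of 11 antigen presentation genes passed, with a median of 0.68, and the class II gene RT1-Da differed by 2.16 ± 0.59 (adjusted p = 0.155). None of 24 interferon response genes passed (median 0.13), nor any of 32 cytokine, chemokine and NF-κB genes (median −0.33). In that last list Ccl6 stood at 2.39 ± 0.45 (adjusted p = 0.0651) and the TWEAK receptor Tnfrsf12a at −1.46 ± 0.33 (adjusted p = 0.105).

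No gene passed on the lists of neutrophils and lymphocytes or of red cells. Genes of leukocytes outside these 2 lists, such as Cd53 and Laptm5, did pass. Of 19 neutrophil and lymphocyte genes with a probe set, 4 were tested and none passed, and the T-cell receptor subunits Cd3d, Cd3e and Cd3g did not reach the filter level on any array of the set. S100a9, a neutrophil granule protein, read 6.08 (DOC), 8.13 (albumin) and 6.46 (TGF-β1) at 24 h and 6.52, 5.19 and 5.10 at 48 h. The summed signal of the 4 genes was 7.82 to 9.08 at 24 h and 7.36 to 8.69 at 48 h. The median difference of the 3 red cell genes was −0.84, and their levels were not low throughout: Hbb, a haemoglobin chain, read 12.49 to 12.99 at 24 h and 11.94 to 12.54 at 48 h.

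The phagocyte count also moved with single arrays. The count of 7 became 2 without DOC at 24 h, 3 without DOC at 48 h, 2 without either albumin at 24 h or one of the TGF-β1 arrays, and 4 without albumin at 48 h. The microglial count of 2 became 1 or 0 without any 1 array, and the lysosomal count of 6 became 1, 2 or 4. Cd68, Cybb and Ms4a6bl1 passed in 15 of the 16 alternative fits that tested them, P2ry12 in 8 of 17 and Csf1r in 3 of 17.

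**Figure D3:**
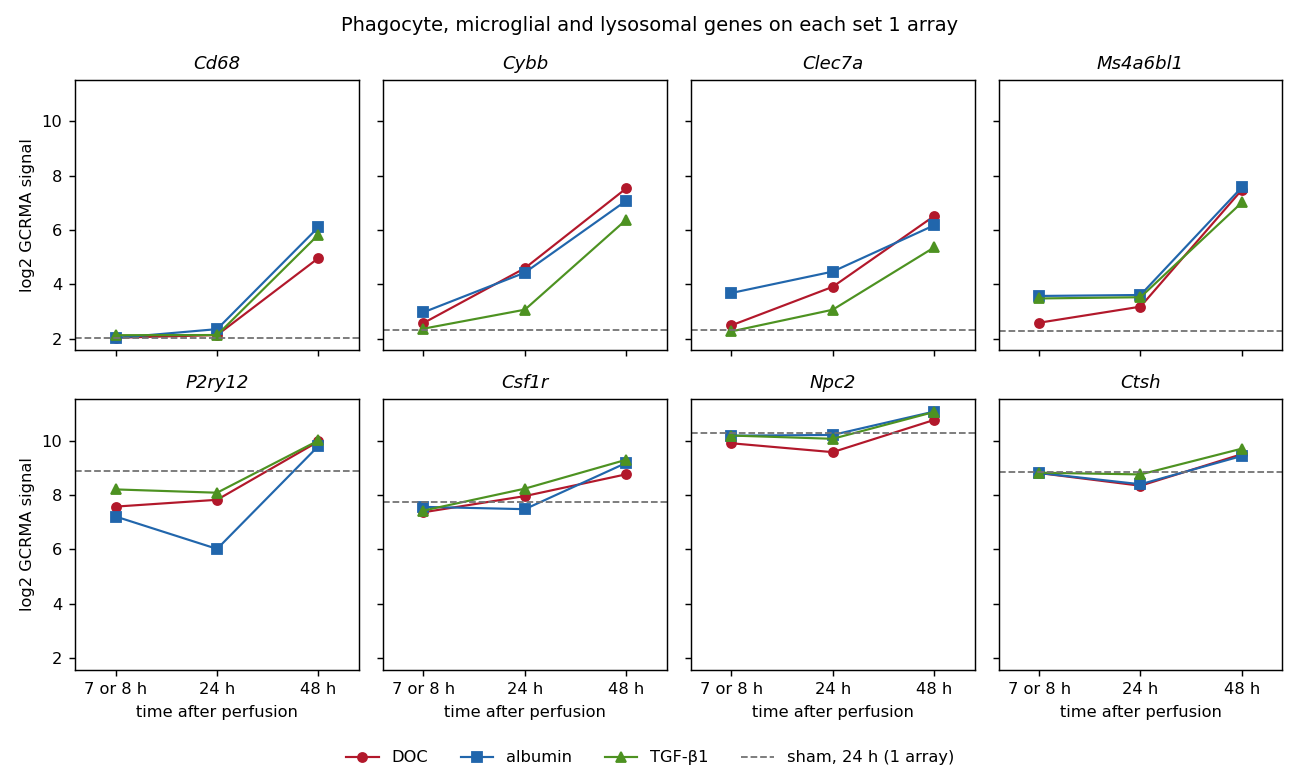
Log2 GCRMA signal of 8 phagocyte, microglial and lysosomal genes against the time after perfusion, with 1 line per agent and the sham array at 24 h as a dashed line. P2ry12 lies below the sham (8.88) at 24 h and above it at 48 h in all 3 agents, whereas Cd68 leaves the bottom of the scale only at 48 h.

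Of 28 reactive astrocyte genes 5 rose and none fell, with a median of 0.49. Vim, the intermediate filament vimentin, read 10.99 (DOC), 11.48 (albumin) and 11.02 (TGF-β1) at 24 h and 12.30, 12.40 and 12.60 at 48 h. These levels were far above the sham (8.80) on both days, and Vim rose by a further 1.27 ± 0.18 (2.41-fold, adjusted p = 0.0291). Lgals1, which encodes galectin-1, moved from 7.55, 8.83 and 9.01 to 10.80, 10.46 and 10.80 (2.22 ± 0.31, adjusted p = 0.0241), and the calcium-binding protein S100a6 from 6.38, 7.55 and 7.95 to 8.29, 9.42 and 9.58 (1.80 ± 0.27, adjusted p = 0.0308). In both genes DOC was the lowest at 24 h. Anxa1 (1.65) and Ggta1 (0.81) also rose. Members that did not pass went both ways. Nes was higher on every 48 h array (2.41 ± 0.57, limma adjusted p = 0.116). Serpina3n (−1.30 ± 0.42, adjusted p = 0.207) and Hspb1 (−0.87 ± 0.53, adjusted p = 0.446) were lower on every 48 h array. Nes, Serpina3n and Hspb1 were named after their values were seen. Gfap, the filament that defines astrocytes and was named after its value was seen, differed by 0.15 ± 0.29 (adjusted p = 0.831), from 13.49, 13.70 and 13.60 to 13.44, 13.84 and 13.94. Several of these genes are also transcribed in phagocytes, fibroblasts and vessel cells, so the cell type that carried them is not given by the arrays. Without any 1 array, the count of 5 became 0, 1 or 2; Lgals1 passed in 9 and Vim in 7 of 17 alternative fits. None of 21 genes of potassium, water and glutamate handling by astrocytes passed (median 0.17), with Aqp4, the water channel, at 0.51 ± 0.14 (adjusted p = 0.167); its 2 other probe sets above the filter gave 1.13 and 0.36.

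Of 39 tested collagen and matrix genes, 6 rose and none fell, with a median of 0.73. Col1a2, a chain of fibrillar collagen I, read 3.22 (DOC), 4.30 (albumin) and 5.78 (TGF-β1) at 24 h and 6.49, 8.21 and 8.90 at 48 h. The order of the agents was the same on both days, the sham read 3.80, and the days did not overlap. The rise was 10.8-fold (3.43 ± 0.32, adjusted p = 0.00623). Lum, the collagen-binding proteoglycan lumican, moved from 3.38, 3.43 and 4.80 to 7.08, 8.07 and 7.58 (13-fold, 3.71 ± 0.48, adjusted p = 0.0169). At 7 or 8 h it had read 5.75, 4.98 and 4.70, so that the DOC and albumin arrays were lower at 24 h than earlier. Loxl1, an enzyme that cross-links elastin, rose by 1.88 ± 0.27 (adjusted p = 0.0269), and Col6a3 (1.17), the matricellular protein Postn (0.85) and the glycoprotein Fbln2 (0.86) rose by less. Col1a2 passed in 14 of 17 alternative fits and Lum in 8.

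Not all collagens moved this way. Col3a1 differed by 3.23 and narrowly missed the threshold (adjusted p = 0.0523), while the basement membrane chains Col4a1 and Col4a2 stood at −0.57 and −1.07 and did not pass. These 3 were named after their values were seen. Of 15 matrix proteases and inhibitors 1 rose, the broad inhibitor A2m, from 7.86 (DOC), 8.00 (albumin) and 8.04 (TGF-β1) to 8.76, 10.17 and 10.07 (1.70 ± 0.25, adjusted p = 0.0284). That count was 2 without DOC at 48 h and 0 without any albumin or TGF-β1 array. Mmp2 (1.61 ± 0.35, adjusted p = 0.096) and Timp2 (0.48 ± 0.12, adjusted p = 0.122; other probe set 0.72) did not pass.

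Of 18 tested meningeal markers, 3 rose (Col1a2, Lum and Igfbp5, a carrier of insulin-like growth factors), none fell, and the median difference was 1.25, with 0.54 under DOC, 1.83 under albumin and 1.33 under TGF-β1. Col1a2 and Lum stand on both lists. The mean log2 level of the 18 was 4.93 (DOC), 5.07 (albumin) and 5.93 (TGF-β1) at 24 h, against 5.01 in the sham, and 5.73, 7.29 and 7.26 at 48 h. The summed signal of the list was 11.07 to 12.47 at 24 h and 11.62 to 13.04 at 48 h. The part of meningeal tissue in the rises of matrix genes was not tested. Without any 1 array the count of 6 matrix genes was 1, 2 or 3, and that of 3 meningeal genes 1, 2, 3 or 5.

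Of 33 genes of endothelium, barrier and pericytes, 2 rose, both of the blood-brain barrier, and none fell (median 0.48). Abcg2, an efflux pump of the luminal membrane of brain capillaries, read 4.31 (DOC), 4.30 (albumin) and 4.50 (TGF-β1) at 24 h, far below the sham array at 7.39. At 48 h it read 7.52, 7.59 and 7.90, next to the sham level, and at 7 or 8 h it had read 6.32, 5.15 and 6.12. The 3 agents gave nearly the same values on each day. Abcg2 rose 9.82-fold (3.30 ± 0.24, adjusted p = 0.0036) and passed in 16 of 17 alternative fits. Ocln, the tight junction protein occludin, moved from 5.53, 4.37 and 5.53 to 6.81, 6.38 and 7.10, with the sham at 6.28, a rise of 1.62 ± 0.18 (3.08-fold, adjusted p = 0.0105). Abcb1a, the efflux pump P-glycoprotein, showed the same order without passing, from 5.60, 5.52 and 6.20 to 6.68, 6.61 and 6.77 with the sham at 6.45 (0.91 ± 0.17, adjusted p = 0.064), and its other probe set gave 1.56. Pecam1 (−0.47), Cldn5 (0.90) and Slc2a1 (−0.66), general markers of brain endothelium named after their values were seen, did not pass and had no common sign. The list count was 2 without any DOC or albumin array and 1 without either TGF-β1 array, and Ocln passed in 10 of 17 alternative fits.

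**Figure D4:**
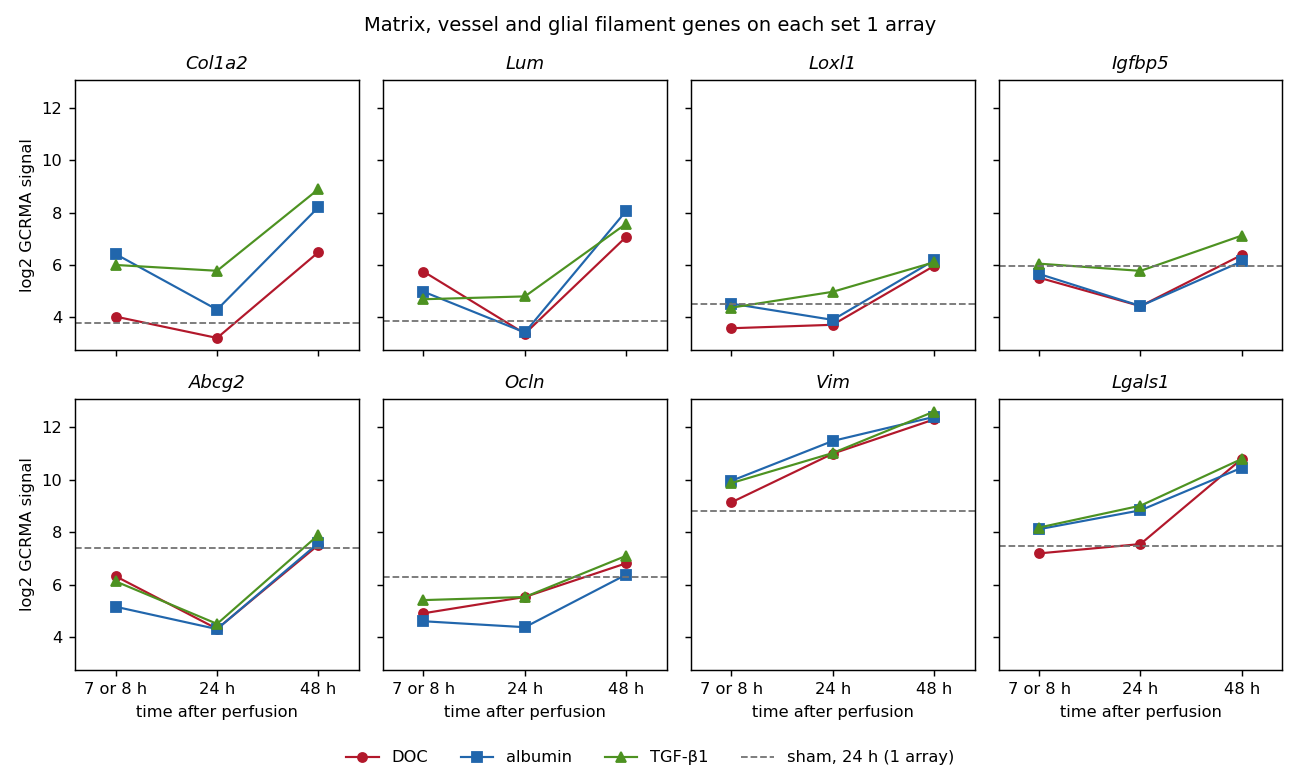
Log2 GCRMA signal of 8 matrix, vessel and glial genes against the time after perfusion, with 1 line per agent and the sham array at 24 h as a dashed line. Col1a2 and Lum rise between 24 h and 48 h in every agent, and at 48 h all their arrays lie above the sham (3.80 and 3.87). At 24 h, Col1a2 was already above it with albumin and TGF-β1, and Lum with TGF-β1. Abcg2 returns from about 4.3 to the sham level (7.39), and Vim lies above the sham (8.80) at every time.

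Of 31 genes of TGF-β signalling, 2 rose, none fell, and the median was −0.09. Id3, a target of BMP and TGF-β receptors that blocks bHLH transcription factors, read 8.93 (DOC), 8.77 (albumin) and 9.87 (TGF-β1) at 24 h and 10.60, 10.50 and 10.59 at 48 h. The array of the cytokine itself was the highest on the first day, and the 3 agents were level on the second (1.37 ± 0.23, adjusted p = 0.0457). Tgfbr1, the type 1 receptor, moved from 9.23, 8.76 and 9.01 to 9.78, 10.07 and 10.46 (1.11 ± 0.19, adjusted p = 0.0499). Both calls lay close to the threshold, and without any 1 array the list count was 1 or 0. Smad7, the feedback inhibitor of the pathway (−0.68), and Tgfb1 (0.23) did not pass and were named after their values were seen.

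The falls were few and of mixed function. Fosl1, a partner of Jun in the AP-1 factor, read 4.42 (DOC), 5.06 (albumin) and 3.67 (TGF-β1) at 24 h and 2.62, 2.27 and 2.50 at 48 h. It had also been low at 7 or 8 h, with 2.27, 3.13 and 2.30, and in the sham (2.23), so it was highest at 24 h in each agent. It was 3.79-fold lower at 48 h (−1.92 ± 0.30, adjusted p = 0.0375), and it passed the filter only through the 24 h arrays. Fosl1 passed in 6 of 16 alternative fits. Ibsp, bone sialoprotein, shared that limit and fell by 1.74 on the log2 scale (adjusted p = 0.0488). Pla1a, a phospholipase that acts on phosphatidylserine, went from 7.33, 6.94 and 5.75 to 5.06, 5.71 and 4.52, near the sham level of 4.71 (−1.58 ± 0.22, adjusted p = 0.0267).

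The other falls were smaller. Col25a1, a membrane-bound collagen of neurons, read 9.14 (DOC), 9.11 (albumin) and 9.40 (TGF-β1) at 24 h and 7.35, 8.32 and 8.12 at 48 h, below the sham at 9.61 (−1.29 ± 0.19, adjusted p = 0.0308). Gga1, an adaptor for transport from the Golgi to endosomes, moved from 7.00, 7.35 and 7.21 to 5.86, 6.33 and 6.09, with the sham at 6.84 (−1.09 ± 0.13, adjusted p = 0.0128). The remaining falls were Bean1 (−1.19), the magnesium transporter Slc41a1 (−0.93), the ETS factor Etv4 (−0.75), the disintegrin Adam11 (−0.74), the actin nucleator Cobl (−0.72) and Bcr (−0.69). Rgs16, which shortens G protein signals, had the smallest p among genes lower in all 3 agents that did not pass (−0.96 ± 0.17, adjusted p = 0.0511). Of the 11 genes that fell, 8 had early arrays all above the 48 h arrays, and in 8 the sham was above all 48 h arrays. These genes were picked for low 48 h arrays, which in itself favours higher early and sham levels. For these counts too, the shares over all genes tested are not given.

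Fosl1 was the single call among 34 immediate early and activity genes, whose median difference was −0.68. The agents differed in size here: the median was −1.60 under DOC, −0.13 under albumin and −0.19 under TGF-β1. Without DOC at 24 h the median was −0.39, and without DOC at 48 h −0.20. Gadd45g, a stress-induced regulator of growth, read 9.82 (DOC), 10.16 (albumin) and 7.78 (TGF-β1) at 24 h and 7.63, 7.50 and 7.27 at 48 h, lower on every 48 h array without passing (−1.79 ± 0.42, adjusted p = 0.116). Myc likewise went from 6.36, 6.30 and 4.80 to 4.49, 4.60 and 4.19 (−1.39 ± 0.34, adjusted p = 0.125).

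Neuronal and synaptic lists had small median differences, and none of their genes passed. The median was −0.33 over 34 glutamate receptor and excitatory synapse genes, −0.16 over 46 voltage-gated and HCN channels, −0.14 over 33 neuronal genes, −0.07 over 18 of cortical excitatory neurons and −0.01 over 28 of GABA signalling. Grin1, the obligatory NMDA receptor subunit, went from 9.48 (DOC), 9.63 (albumin) and 9.85 (TGF-β1) to 8.51, 9.08 and 9.52 (−0.62 ± 0.14, adjusted p = 0.11; other probe set −0.46), lower in each agent and overlapping between days. Rbfox3, which encodes the neuronal marker NeuN, read 11.13, 11.27 and 11.80 at 48 h, below every 24 h array (−0.54 ± 0.15, adjusted p = 0.152; other probe set −0.48). Camk2a, the kinase of excitatory synapses, stood at −1.93 ± 0.54 (adjusted p = 0.161), but its 3 other probe sets above the filter gave −1.01, −0.11 and 0.19. For Shank1 (−0.46) the other probe set gave 0.05. Rorb, which had the smallest p among the genes of cortical excitatory neurons, went the other way. It was higher at 48 h in each agent without passing (1.26 ± 0.30, limma adjusted p = 0.119; other probe set 1.08).

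No gene passed on the lists of heat shock proteins and chaperones (19 genes, median −0.03), the unfolded protein and ATF4 response (32, 0.15), NRF2 targets, iron and metallothioneins (21, 0.17), hypoxia and glycolysis (29, −0.10), cholesterol synthesis and lipid efflux (30, −0.05), the circadian clock (18, −0.03), glucocorticoid response (19, −0.24), oligodendrocytes and precursors (18, 0.10), oxidative phosphorylation (48, 0.07), the ribosome (25, 0.27), choroid plexus and ependyma (5, 0.45) or striatum (10, −0.05). Some members nearest to the threshold had no overlap between days, among them the lipid carrier Apod (0.58 ± 0.12, adjusted p = 0.089), the ribosomal protein Rps24 (0.51 ± 0.13, adjusted p = 0.131; other probe set 0.15) and Pdgfra, the receptor that marks oligodendrocyte precursors (0.67 ± 0.18, adjusted p = 0.147). Angptl4, a target of glucocorticoids and hypoxia, did not pass (−1.81 ± 0.80, adjusted p = 0.318), reading 9.71 (DOC), 8.07 (albumin) and 5.94 (TGF-β1) at 24 h and 5.32, 6.77 and 6.20 at 48 h. It was lower at 48 h with DOC and albumin and slightly higher with TGF-β1.

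**Figure D5:**
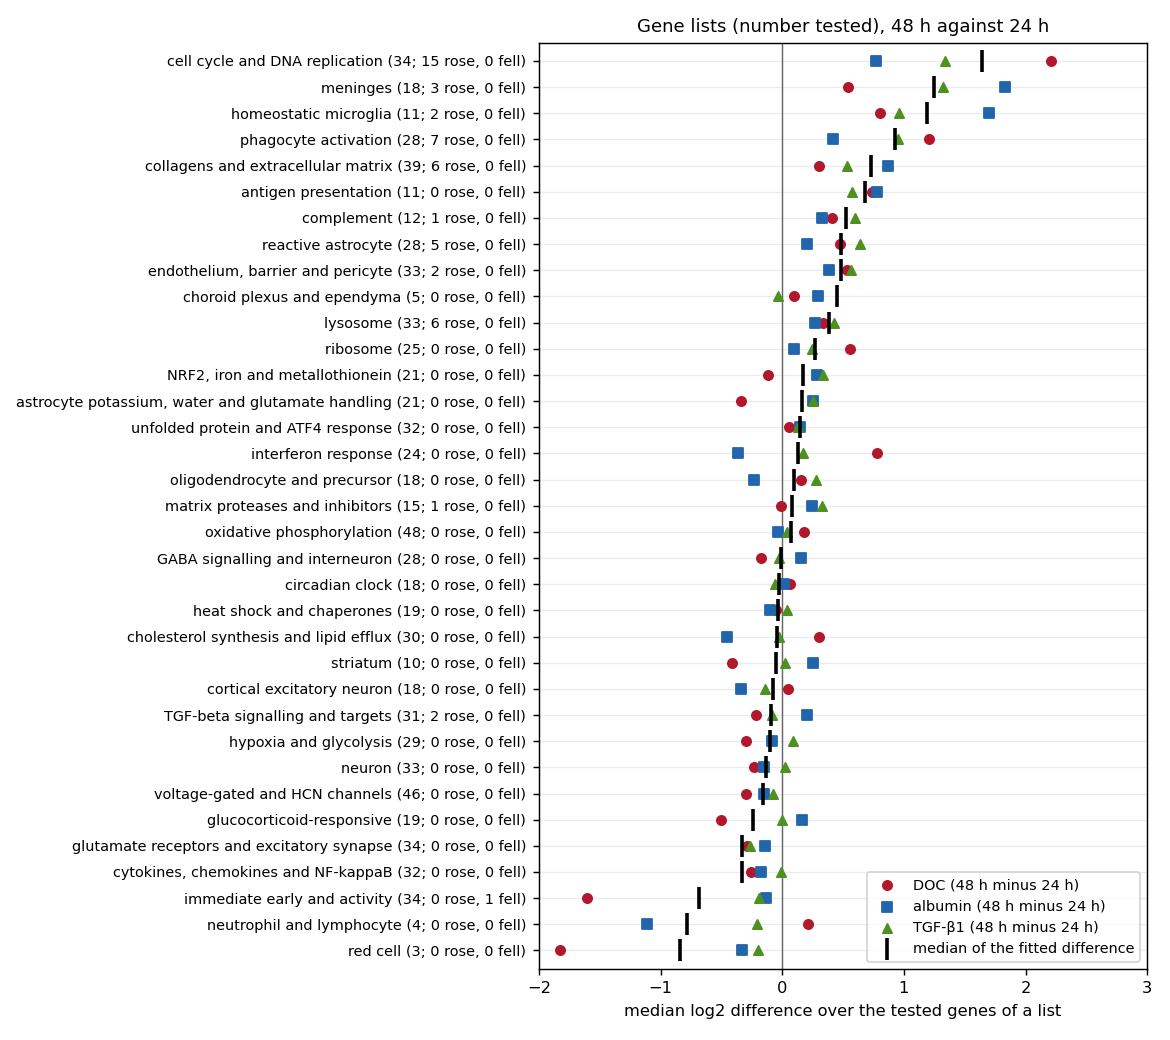
Each row is a gene list with the number of genes tested and called; coloured points give the median log2 difference of 48 h minus 24 h for each agent's pair of single arrays, and the black bar the median of the fitted differences. Cell cycle genes have the highest bar (1.64), but that list holds members that only their 48 h arrays lifted over the filter. Its median was lower without a filter. The immediate early list shows the DOC point (−1.60) apart from albumin (−0.13) and TGF-β1 (−0.19).

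The 3 agents were not equally variable between the days. The standard deviation of the 48 h minus 24 h difference over all genes was 0.72 for DOC, 0.55 for albumin and 0.45 for TGF-β1. At least 2-fold differences were counted in 1148 genes for DOC, 613 for albumin and 361 for TGF-β1, each from 1 pair of arrays and without a test. Across genes, which are not independent replicates, the differences correlated with a Pearson r of 0.24 between DOC and albumin, 0.39 between DOC and TGF-β1 and 0.44 between albumin and TGF-β1. No array is shared between such pairs. Of genes at least 2-fold different in both agents of a pair, 198 of 263 had the same sign for DOC and albumin, 174 of 195 for DOC and TGF-β1 and 181 of 196 for albumin and TGF-β1. In all 3 agents at once, 102 genes were at least 2-fold higher (1.02% of those tested) and 6 at least 2-fold lower (0.0599%). Among the 130 rises, the step was widest under DOC in 65, under albumin in 44 and under TGF-β1 in 21.

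The levels at 7 or 8 h and in the sham are given here for the genes that rose. These genes were picked for high 48 h arrays, which in itself favours lower early and sham levels. The shares over all genes tested are not given. In 124 of the 130 genes that rose, the arrays at 7 or 8 h lay below all arrays at 48 h, and in 123 the sham lay below them. In 20 they also lay below all arrays at 24 h. Against the 24 h arrays the sham lay below all 3 in 60 genes, within their range in 45 and above all 3 in 25, among them Abcg2, P2ry12 and Ocln. In 17 of the 130 the sham was nearer to the 48 h mean than to the 24 h mean. The sham was a single animal sampled at 24 h, so these counts describe levels and carry no test.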

How the data were processed

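Total RNA of somatosensory cortex was labelled with biotin and read on Affymetrix arrays, 1 per agent and time in the set used here. The deposited files hold log2 signals per probe set, for which the submitters' processing notes name GCRMA as the authors' method, with no version named. GCRMA normalises arrays to a common distribution, so a change shared by most genes would be lost, and its floor limits folds of dim genes.

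Of 31099 probe sets, 20843 named 1 gene (symbols updated through the gene table of assembly GRCr8). For each of 14225 genes the brightest probe set, by its mean on all 19 arrays, was kept, and 10023 genes with log2 above 4 on at least 2 of the 10 set 1 arrays were tested. The deposited log2 values of the 9 treated set 1 arrays entered lmFit and eBayes of limma 3.58.1 (R 4.3.3), with agent as a block and time (7 or 8 h, 24 h, 48 h) as terms, 4 residual degrees of freedom, two-sided, and Benjamini-Hochberg adjustment at 0.05. SE is the moderated standard error. The script was tested on simulated data. Plots were made with Python 3.11.15, pandas 2.3.3, numpy 2.4.6 and matplotlib 3.10.9.

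Named genes were the 12 largest rises and falls past the threshold with 1 sign in all 3 agents (falls filled by the smallest p), and up to 3 members of each of 35 gene lists with the smallest p. The other members past the threshold are named with their lists. The arrays compared and the lists were chosen with earlier results of these data known. Alternatives changed the arrays fitted, the block, the variance prior, the filter, the probe set rule and the scaling, and left out each array and each agent in turn. Set 2 was not used.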

Additional observations from a re-analysis of the deposited data

How the results depend on the processing

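The count of 141 genes was 173 with a trend and robust prior, 127 with the mean of a gene's probe sets, 144 after median centring and 128 after quantile normalisation. It was 57 with no filter, 50 where the mean log2 had to exceed 5 (82 of the 141 were then tested), and 10 from the 6 arrays at 24 h and 48 h alone. With 1 array or 1 agent left out it ranged from 0 to 103. The 0, without TGF-β1, came from limma with a smallest adjusted p of 0.108 and 1183 genes at an unadjusted p of 0.05. Each of the 141 that an alternative tested had the same direction there and an unadjusted p under 0.05. The 1859 genes without overlap between the days became 2608 to 4392 with fewer arrays, since fewer arrays overlap less. The 108 genes at least 2-fold different in all agents became 54 with the mean log2 above 5 and 174 to 198 without an array or agent. Correlations between agents stayed positive in every alternative run. Of the named genes, 4 that had not passed changed sign, all when arrays were left out. Mmp9 (range −1.58 to 0.31) reached 0.31 without DOC at 48 h and 0.24 without DOC. Tmem212 (−0.15 to 0.90) reached −0.15 without albumin at 24 h and −0.07 without albumin. Without DOC, Hbb (−0.56 to 0.00067) and Rasd2 (−0.51 to 0.044) ended just above 0. No paired analysis was possible because the set 1 arrays carry no replicate numbers by which to pair them; pairing by agent is already in the fit, and 135 genes passed without it. The fits concerned held fewer arrays or genes, and the cause of these shifts was not tested. Signal over background limits folds of genes near the floor.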

Other observations

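Of the 141 genes past the threshold, 94 stood on no list, and those named here were chosen after their values were seen. Folr2, a folate receptor of resident macrophages, read 2.12 (DOC), 2.06 (albumin) and 2.08 (TGF-β1) at 24 h and 4.22, 5.08 and 5.29 at 48 h (2.78 ± 0.23, limma adjusted p = 0.005). The chemokine Pf4, made by platelets and border macrophages, moved from 5.12, 5.69 and 5.65 to 6.81, 7.74 and 7.39 (1.83 ± 0.18, adjusted p = 0.00706). Cd53, a tetraspanin of leukocytes, rose by 2.24 and the pore-forming protein Mpeg1 of macrophages by 1.51. The growth factor Igf1 rose by 1.27 ± 0.19 (adjusted p = 0.0305), from 6.61, 6.70 and 6.48 to 8.35, 7.48 and 7.76.

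Calca, which encodes calcitonin and the neuropeptide CGRP, read 7.69 (DOC), 8.06 (albumin) and 8.49 (TGF-β1) at 24 h and 9.83, 10.09 and 9.65 at 48 h. At 7 or 8 h it had read 5.23, 5.30 and 5.18 and in the sham 4.39, so it was higher at each later time (1.78 ± 0.21 between the 2 days, adjusted p = 0.0124). Ddc, the decarboxylase that makes dopamine and serotonin, followed the course of Abcg2: it read 2.68, 2.92 and 2.89 at 24 h, 5.10 to 5.48 at 48 h and 6.13 in the sham (2.48 ± 0.20, adjusted p = 0.005). Fabp7, a fatty acid carrier of radial glia and astrocytes, rose by 1.28 ± 0.18 (adjusted p = 0.0249) from levels near 11.

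Of the 141 genes, 18 had another probe set above the filter. All 19 such probe sets had the same direction, and 16 reached an unadjusted p of 0.05. Among 4444 probe sets that name several genes or none, 6 passed the threshold in a fit over all 18106 probe sets above the filter, all higher at 48 h.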
